A study of Mus musculus with 8 samples.

Results

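Of 8 mammary tumour samples from MMTV-PyMT mice, 3 had high deposited values of Krt27, Krt73 and Tchh, genes of the hair follicle, and these 3 are compared here with the other 5. The hair-keratin-rich samples are vehicle tumour 3 and SKI-606 tumours 1 and 4, and the other 5 are vehicle tumours 1, 2 and 4 and SKI-606 tumours 2 and 3. The 3 were selected on measured values of the same arrays, so every difference between them and the other 5 is given as a description of these arrays, with no p-value. It is a contrast of tumour composition or state, and each class holds tumours of both treatments.

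All 8 samples came from female mice that carry the transgene on an FVB/N background (FVB/N-Tg(MMTV-PyVT)634Mul/J). In this line the promoter of the mouse mammary tumour virus drives the polyoma virus middle T oncogene mainly in mammary epithelium, and every tumour of both classes carried this transgene. The 4 SKI-606 mice had received SKI-606 (bosutinib, an inhibitor of the Src and Abl kinases) by oral gavage at 100 mg/kg, and the 4 controls are labelled as vehicle-treated. The labels give neither the age of the mice nor the length of treatment. Total RNA of each mouse was measured on 1 Affymetrix mouse expression array, and the deposited values are linear ratios from which whole-number signals were recovered. Signals below are these numbers after quantile normalization, differences are of log2(signal + 16), and a ± after a difference is the standard error from the spread within both classes pooled, with n = 3 and n = 5. On this scale the differences of genes with signals near or below 16 are understated.

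The hair follicle builds its shaft from hair keratins cross-linked by keratin-associated proteins, and surrounds it with an inner root sheath whose cells make their own keratins and trichohyalin. The epidermis and squamous epithelia use other keratins, and their upper layers make a cornified envelope from small proline-rich proteins, late cornified envelope proteins and loricrin. Both programmes are found in skin, whereas the epithelium of a mammary gland normally consists of luminal and myoepithelial cells. Wnt, Shh, BMP, Eda and Notch signals take part in forming both hair follicles and mammary glands.

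The promoters of the 3 genes that chose the samples, and of Krtap8-1 and Prr9 as members of neighbouring gene clusters with large differences, are shown because all 5 genes were high in the same 3 tumours. The sequences are those of RefSeq on the build GRCm38.p6, from 250 bases before to 50 bases after the annotated start, 5′ to 3′ on the strand of the gene. Capitals mark TATAAA and CTTTGA on either strand, the letters of a TATA box and of the core bound by LEF and TCF factors.
Krt27, chr11:99351069-99351368, minus strand: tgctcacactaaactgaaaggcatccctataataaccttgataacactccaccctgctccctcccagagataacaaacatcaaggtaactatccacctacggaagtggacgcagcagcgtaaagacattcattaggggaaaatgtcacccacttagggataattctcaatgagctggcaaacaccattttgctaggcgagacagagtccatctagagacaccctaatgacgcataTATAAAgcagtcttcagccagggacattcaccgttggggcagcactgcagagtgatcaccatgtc
Krt73, chr15:101802311-101802610, minus strand: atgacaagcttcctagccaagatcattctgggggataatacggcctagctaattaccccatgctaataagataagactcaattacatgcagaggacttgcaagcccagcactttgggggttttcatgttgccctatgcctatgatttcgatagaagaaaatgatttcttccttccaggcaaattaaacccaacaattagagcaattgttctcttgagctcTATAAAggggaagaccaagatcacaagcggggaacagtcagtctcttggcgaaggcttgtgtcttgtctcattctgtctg
Tchh, chr3:93442080-93442379, plus strand: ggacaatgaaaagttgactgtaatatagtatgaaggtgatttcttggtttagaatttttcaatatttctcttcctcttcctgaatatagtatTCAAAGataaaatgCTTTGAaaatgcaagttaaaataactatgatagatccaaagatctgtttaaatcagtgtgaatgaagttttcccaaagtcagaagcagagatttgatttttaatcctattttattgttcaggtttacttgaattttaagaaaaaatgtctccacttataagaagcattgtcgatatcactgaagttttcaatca
Krtap8-1, chr16:89487903-89488202, minus strand: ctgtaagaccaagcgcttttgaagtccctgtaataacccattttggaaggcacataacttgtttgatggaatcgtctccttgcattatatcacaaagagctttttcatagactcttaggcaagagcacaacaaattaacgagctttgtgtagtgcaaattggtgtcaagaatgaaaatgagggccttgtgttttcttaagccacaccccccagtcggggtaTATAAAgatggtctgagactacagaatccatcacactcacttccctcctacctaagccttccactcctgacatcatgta
Prr9, chr3:92123898-92124197, minus strand: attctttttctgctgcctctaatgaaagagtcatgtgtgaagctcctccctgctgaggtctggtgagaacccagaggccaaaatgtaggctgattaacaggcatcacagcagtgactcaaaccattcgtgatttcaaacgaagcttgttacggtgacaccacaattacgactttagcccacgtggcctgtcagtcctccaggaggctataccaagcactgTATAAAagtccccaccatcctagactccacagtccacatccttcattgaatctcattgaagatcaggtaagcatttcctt
The first T of TATAAA lay at position -15 in the Krt27 window, at -30 in those of Krt73 and Prr9 and at -29 in that of Krtap8-1, counted from the annotated start. The Tchh window held no TATAAA but held CTTTGA at both -158 and -144, once on each strand.

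Over the promoters that RefSeq lists for genes counted as higher (defined below), TATAAA was in 29.2% of 284 windows, which belong to 238 of the 323 genes, against 9.77% of the 18109 windows of all measured genes and 13.6% of all 32851 windows. Among the counted keratin-associated protein genes 21 of 23 windows held it, and among the counted inner root sheath genes 7 of 9. The share was 27.3% of 33 windows for counted epidermal keratin and cornified envelope genes. The Hoxc13 core TTTATNG was in 6 of 9 inner root sheath windows and 3 of 6 hair shaft keratin windows. It was in only 3 of 23 keratin-associated protein windows and 3 of 33 epidermal and cornified windows. Its share was 16.9% for genes counted as higher, 8.22% for measured genes and 10.9% for all windows. The AP-1 letters TGANTCA were in 12 of 33 epidermal and cornified windows, 6.38% of those of measured genes and 7.81% of all windows. They were in 15.5% of the windows of genes counted as higher, with 1 of 9 inner root sheath and 4 of 23 keratin-associated protein windows. CTTTGA was in 15.1% of the windows of genes counted as higher, 13.5% of those of measured genes and 16% of all windows. By list it was in 4 of 6 hair shaft keratin and 2 of 9 inner root sheath windows. The keratin-associated protein windows held it in 7 of 23 and the epidermal and cornified windows in 3 of 33. For genes counted as higher, measured genes and all windows in turn, the AP-2 letters GCCNNNGGC were in 20.1%, 22.1% and 16.6%, and the KLF letters CACCC in 65.5%, 63% and 57.5%. AACCGGTT, a palindrome of grainyhead-like factors, was in 0%, 0.199% and 0.146%. Each motif was searched on both strands, motifs may overlap in a window, and neighbouring members of 1 family share sequence. On the other strand TTTATNG reads CNATAAA, so a TATAAA preceded by C, as in the Krt73 window, was counted for both motifs. The Hoxc13 and TATA box shares are therefore not independent. A match describes letters in the window and does not show binding.

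Measures of array quality did not place the 3 tumours together on the same side of the other 5. The median recovered signal was 23 in vehicle tumour 3 and 15 in both SKI-606 tumours of the class, against 15 to 18 in the other 5. For actin, the 3′ control probe read higher than the 5′ probe by a ratio of 1.66 to 3.83 in the 3 and 1.77 to 3.78 in the other 5. Vehicle tumour 3 was the outlying array, with the highest median and the highest actin ratio. Its recovered signals were below 10 for 27.8% of probes, against 39.7% and 41.6% in SKI-606 tumours 1 and 4 and 34.0% to 39.4% in the other 5. They were 0 for 0.26%, against 2.63% and 3.62% in the SKI-606 pair and 0.66% to 2.35% in the other 5. By both shares vehicle tumour 3 lay below the range of the other 5 and the SKI-606 pair above it. The part of this in the differences between vehicle tumour 3 and the SKI-606 pair, or between the classes, was not tested. SKI-606 tumours 1 and 4 were alike over all probes (r = 0.972), whereas vehicle tumour 3 had an r of 0.935 and 0.94 with them and of 0.952 to 0.957 with the other vehicle tumours. On the first principal component, with 34% of the variance, SKI-606 tumours 1 and 4 lay at 81.1 and 72.4 and vehicle tumour 3 at -14.8, nearer to the other 5 (-38.5 to -22.4). Vehicle tumour 3 stood apart on the second component, at -81. Vehicle tumour 3 thus shared the hair keratin genes with the other 2 tumours of its class while the bulk of its profile did not lie with theirs. No pair of arrays held the same values.

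The labelled tissue was mammary, and the luminal keratins Krt8 and Krt18, partner keratins of simple epithelium, were high in all 8 samples. The signal of Krt8 was 5342, 6337 and 4839 in vehicle tumour 3 and SKI-606 tumours 1 and 4, and 5637 to 6034 in the other 5. Lalba, the regulatory subunit of lactose synthase, had signals of 4150 to 6379 in the 3 and 4893 to 11196 in the other 5. The 3 tumours therefore held mammary epithelial RNA beside the follicle transcripts described next.

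The 3 genes behind the selection separated the classes by a wide gap. The deposited ratio of Krt27, an inner root sheath keratin, was 50.6 in vehicle tumour 3, 230 in SKI-606 tumour 1 and 271 in SKI-606 tumour 4, and the fourth-highest sample had 1.08. That of Krt73, a keratin of the inner root sheath cuticle, was 42.6, 156 and 174 in the same order, with 1.03 in the next sample. Tchh encodes trichohyalin, which hardens the inner root sheath, and its ratio was 70.6, 149 and 174, with 1.25 in the next sample. These values chose the samples and support nothing further. In signals, Krt27 read 816, 2413 and 3131 in the 3 and 12.4, 10.2, 4.5, 1.12 and 10.1 in vehicle tumours 1, 2 and 4 and SKI-606 tumours 2 and 3. Krt73 read 1171, 2838 and 3390, against 18.6, 7, 3.62, 19.5 and 15.5, and Tchh read 1187, 1563 and 1976, against 9.12, 0.25, 14.5, 9.12 and 4.12. Vehicle tumour 3 was the lowest of the 3 for all 3 genes and still far above each of the other 5.

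**Figure D1:**
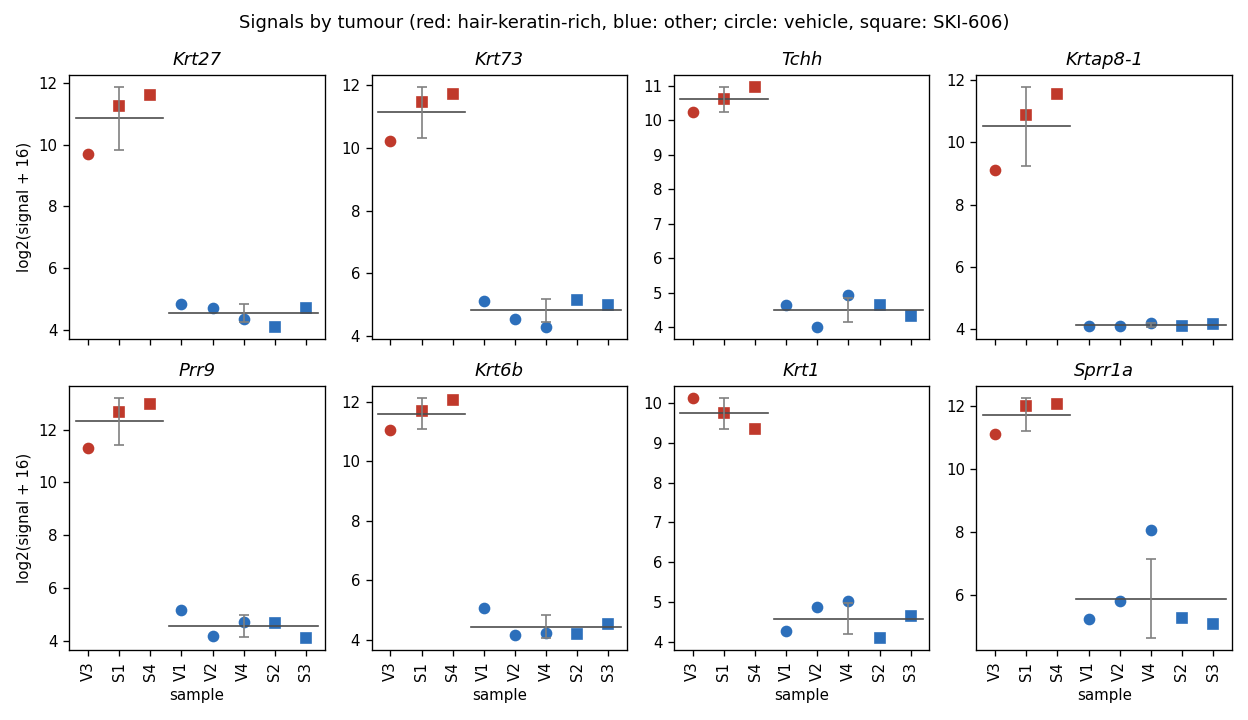
Signals of 8 genes in each of the 8 tumours, as log2(signal + 16), with V for vehicle and S for SKI-606; red marks the 3 hair-keratin-rich tumours and blue the other 5, and lines and bars give the class mean and SD. In each panel the 3 red points lie above all blue points, and vehicle tumour 4 is the highest of the other 5 for Sprr1a, at a signal of 254.

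Across the array, a gene was counted as higher or lower when its class means differed by at least 1 on the log2 scale and the 3 samples did not overlap the other 5. By this rule 323 of 18193 genes (1.78%) were higher in the 3 tumours and 23 (0.126%) were lower; at the level of probes it was 435 of 45037 (0.966%) and 39 (0.0866%). Without the size rule, 666 genes (3.66%) lay above the other 5 in all 3 samples and 565 (3.11%) lay below, so the excess of higher genes was among those with large differences. At 4-fold or more, 141 genes were higher and 2 were lower, and at 16-fold or more 45 were higher. On the log2 scale of the deposited ratios the count was 396 higher and 204 lower. Without vehicle tumour 3, the 2 SKI-606 tumours alone gave 821 higher and 242 lower genes. Because the samples were selected on these arrays, these shares are backgrounds against which the lists below are read, and nothing is drawn from them alone. The median difference over all genes was -0.04. A gene was read from its brightest probe: of the 323 genes 97 had several probes, and for 61 of these another probe differed by less than 1, for 17 in the opposite direction. Of the 23 lower genes 13 had several probes, another of which was less than 1 apart for all 13. Examples among genes named below, by their lowest probe, are Apcdd1 (-0.23), Acta2 (-0.22), Tgfa (-0.19), Klf5 (-0.25) and Lama3 (0.08). Further examples are Msx2 (0.47), Krt14 (0.47), Krt17 (0.55), Egr3 (0.58), Il1f5 (0.58), Dlx3 (0.69) and Ovol1 (0.72). Among lower genes, the highest probe of Cldn2 was at -0.50 and that of Etv5 at -0.58. The ± after a difference does not include this disagreement between probes. In bulk samples fewer cells of a type and less RNA per cell cannot be told apart.

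Inner root sheath genes beyond the 3 that chose the samples were high in the same tumours. Of the 6 other measured members all 6 were counted as higher, with a median difference of 3.82; with the 3 selecting genes included the median of the 9 was 4.59. Krt25, which pairs with other inner root sheath keratins, had signals of 832, 2384 and 2241 in the 3 tumours and 5.62, 4.25, 9.12, 2.38 and 7 in the other 5, a difference of 6.27 ± 0.37. Krt28 differed by 4.59 ± 0.57, Krt72 by 3.87 ± 0.65, Krt26 by 3.76 ± 0.62 and Krt71 by 3.68 ± 0.50. The smallest difference was that of Tchhl1, a trichohyalin-like gene, at 2.44 ± 0.26, with signals of 59.2, 104 and 151 against 2 to 8. The mean log2 value over all 9 takes in the 3 selecting genes and is fixed in part by the selection. It was 8.38 in vehicle tumour 3 and 9.69 and 10.23 in SKI-606 tumours 1 and 4. In the other 5 it lay between 4.48 and 4.73.

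Keratins of the hair shaft followed the same samples. Of 12 measured, 11 were counted as higher, and the median difference was 3.04. Krt34 had signals of 184, 773 and 1324 in the 3 tumours and 1.12, 2, 3.62, 1.12 and 1.12 in the other 5, which is 5.07 ± 0.60 apart. Krt33a differed by 5.03 ± 0.67, Krt31 by 4.25 ± 0.57 and Krt86 by 4.23 ± 0.72; these are cortex keratins of the acidic and basic types. Krt84 was the exception, since its signal of 1.81 in vehicle tumour 3 lay below those of the other 5 (2.38 to 13.4), while it read 31.4 and 69.2 in SKI-606 tumours 1 and 4. The hair shaft keratins are similar in sequence, so that probes of close paralogues may read each other.

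Keratin-associated proteins, which fill the space between hair keratin filaments, gave 25 of 33 measured members counted as higher and a median of 2.95. Krtap8-1, a glycine- and tyrosine-rich member, had signals of 535, 1880 and 2991 in the 3 tumours and 1.12, 1.12, 2.5, 1.12 and 2 in the other 5, with a difference of 6.38 ± 0.53. Krtap4-6, of the cysteine-rich kind, differed by 5.49 ± 0.71, and Krtap4-1 by 4.95 ± 0.80. Krtap13-1 differed by 4.85 ± 0.59. No measured member was counted as lower. In vehicle tumour 3 the list mean was 5.88, between the other 5 (4.42 to 4.54) and SKI-606 tumours 1 and 4 (7.71 and 8.24).

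Other proteins of the follicle were high in the same samples, with smaller differences. Of 23 secreted and membrane proteins 12 were counted as higher, with a median of 1.31. S100a3, a calcium-binding protein of the hair cuticle, had signals of 258, 1438 and 1799 against 1.12 to 11.4, a difference of 5.33 ± 0.65. Crym, a thyroid hormone-binding crystallin, differed by 4.97 ± 0.64, and Cdsn, the corneodesmosome adhesion protein, by 4.54 ± 0.44. Cst6, a cysteine protease inhibitor of follicle and epidermis, differed by 4.92 ± 1.46, and its large error came from vehicle tumour 4, where the signal was 1912 against 17.5 to 38.9 in the remaining 4. In the 3 tumours it was 2750, 2532 and 3294.

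Transcription factors of the hair matrix had smaller differences than the structural genes. Of 23 measured, 4 were counted as higher and none lower, with a median of 0.35. Dlx3, a homeobox factor of follicle differentiation, had signals of 136, 122 and 98.9 in the 3 and 24.6, 19.5, 26.1, 18.5 and 15.5 in the other 5, a difference of 1.87 ± 0.13. Msx2, a homeobox factor of the matrix, differed by 1.85 ± 0.13, Foxq1, needed for a normal hair medulla, by 1.51 ± 0.32, and Ovol1 by 1.44 ± 0.27. For Dlx3 and Msx2 the 3 tumours had nearly level signals, unlike the keratins: vehicle tumour 3 differed from the mean of the SKI-606 pair by 0.27 and 0.07. Hoxc13 and Foxn1, regulators of hair keratin genes, overlapped between the classes, with signals of 8.25, 31.4 and 29.2 against 1.12 to 10.2 for Hoxc13 and no signal above 25.4 for Foxn1. Lef1 overlapped too, with signals of 14.4 to 40.4 in all 8 samples.

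Genes of epidermal and squamous differentiation were higher in the same 3 tumours. Of 20 keratins on this list, 12 were counted as higher, with a median of 2.11. Krt6b, a keratin of the companion layer and of activated epidermis, had signals of 2088, 3304 and 4250 in the 3 and 17.5, 2, 2.5, 2.38 and 7 in the other 5, a difference of 7.16 ± 0.32. Krt6a differed by 6.31 ± 0.52 and Krt16, a common partner of both, by 5.48 ± 0.38. The next pair marks suprabasal epidermis. Krt1 had signals of 1091, 846 and 636 against 1.12 to 16.5 (5.15 ± 0.28), and its partner Krt10 had 1959, 967 and 974 against 73.9 to 178 (3.26 ± 0.36). Vehicle tumour 3 was the highest of the 3 for both, the reverse of its place among the hair keratins.

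Among cornified envelope and desquamation genes 26 of 38 were counted as higher, with a median of 2.14. Sprr1a, a small proline-rich protein of the envelope, had signals of 2212, 4086 and 4234 in the 3 and 21.6, 39.5, 254, 22.2 and 17.5 in the other 5, which differ by 5.84 ± 0.78. Sprr1b differed by 5.60 ± 0.40 and Sprr2h by 4.91 ± 0.18. The kallikrein proteases Klk6 and Klk7, of which Klk7 cleaves corneodesmosomes, differed by 5.64 ± 0.47 and 5.05 ± 0.25. Lce1f, a late envelope protein, differed by 4.28 ± 0.28. Flg, the filaggrin precursor, was counted too, with 239 in vehicle tumour 3 and 49.9 and 22.1 in SKI-606 tumours 1 and 4, against 0.25 to 7. Loricrin (Lor) and involucrin (Ivl), textbook markers of the envelope, overlapped between the classes, with differences of 0.68 ± 0.43 and 0.96 ± 0.49. Ivl was at 70.1 in vehicle tumour 3 but at 2.38 and 13.4 in the SKI-606 pair.

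Among the genes of largest difference were some outside these families. Prr9, a proline-rich protein gene beside the envelope genes, had the largest difference by the naming rule: its signals were 2530, 6396 and 8006 in the 3 and 19.6, 2, 10, 9.12 and 1.12 in the other 5 (7.76 ± 0.45). Calm4, a calmodulin-like protein of differentiating epidermis, had signals of 1119, 1809 and 1285 against 1.62 to 8 (6.13 ± 0.18). Crct1 differed by 5.38 ± 0.57, and 2310011E23Rik, without a family name, by 5.09 ± 0.39.

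**Figure D2:**
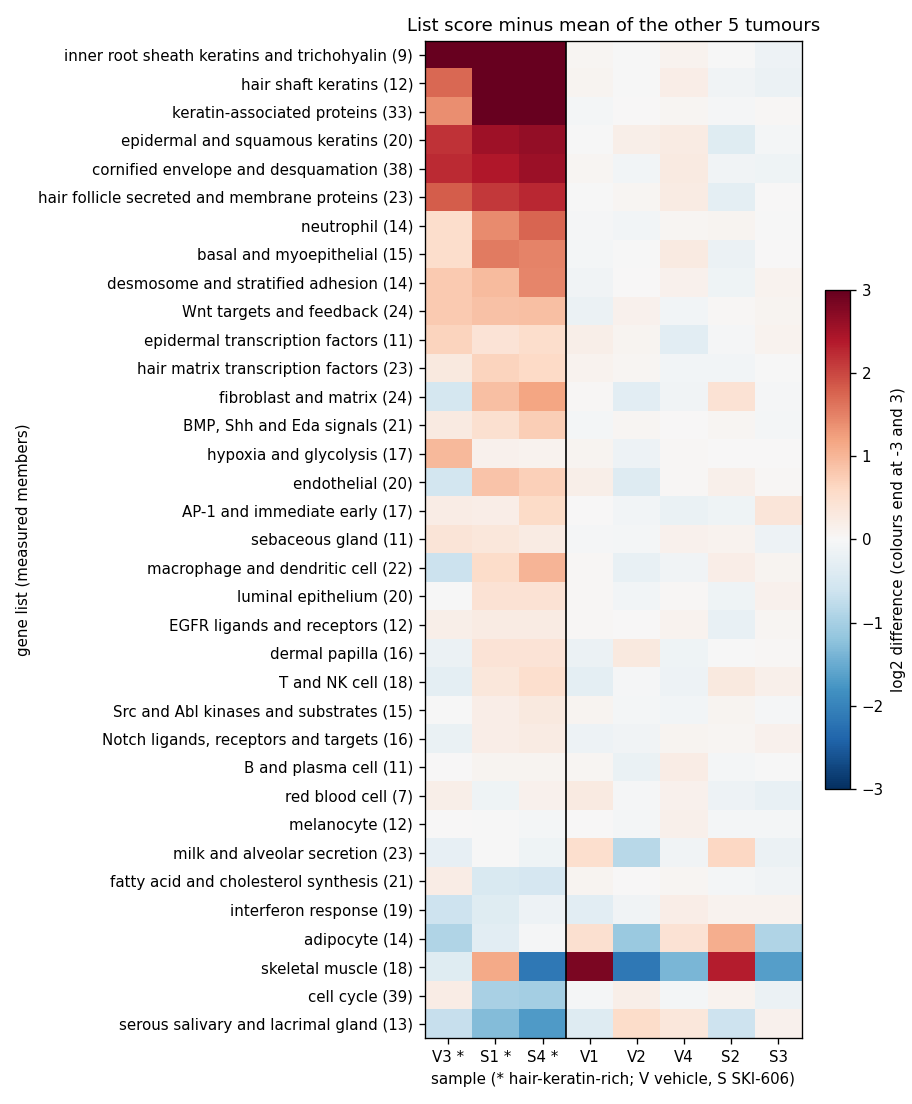
Mean log2(signal + 16) of the measured genes of 35 lists in each tumour, minus the mean of the other 5 tumours; red is higher and blue lower, and colours end at -3 and 3. The top lists are those of hair and epidermis and are red in all 3 hair-keratin-rich tumours, whereas fibroblast, endothelial, macrophage and cell cycle lists take opposite colours in vehicle tumour 3 and in SKI-606 tumours 1 and 4.

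Genes counted as higher often lay side by side. Of 322 that could be placed among 18029 measured genes in RefSeq order, 118 (36.6%) had a counted gene as next neighbour, and of all placed genes 3.18% did. The 10 runs of 5 or more held 67 genes. The longest, of 11, was made of keratin-associated protein genes from Krtap3-1 to Gm11567, and a run of 10 held type II keratins from Krt82 to Krt1, with Krt6b, Krt5 and Krt73. Type I hair keratins from Krt33a to Krt36 stood in a run of 8, and Flg, Hrnr, Rptn, Tchh and Tchhl1 were neighbours. A run of 5 outside skin keratins was that of the interleukin-1 family, singled out after its values were seen: Il1f9, Il1f6, Il1f5, Il1f10 and Il1rn. Il1rn, the receptor antagonist, had a difference of 2.64 ± 0.53, and Il1f5, the antagonist of a related receptor, one of 2.05 ± 0.32. The clusters are families of similar genes, so the counts of neighbours are not independent. The counts also include the selecting genes Krt27, Krt73 and Tchh, all of which stand in these runs.

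Adhesion genes of stratified epithelium gave 7 of 14 counted as higher, with a median of 1.01. Dsc1, a desmosomal cadherin of upper epidermis, had signals of 163, 87.6 and 232 against 1.12 to 9.12, a difference of 3.04 ± 0.30. Pkp1, a desmosomal plaque protein, differed by 2.09 ± 0.47 and Dsp, the desmosomal linker to keratin, by 1.62 ± 0.56. Col17a1 and Lama3, of the hemidesmosome and its basement membrane, differed by 1.79 ± 0.60 and 1.69 ± 0.31. Of 11 epidermal transcription factors 3 were counted. Klf4, a factor of the epidermal barrier, had signals of 396, 655 and 932 against 83.8 to 156 (2.33 ± 0.32), and Klf5 and Grhl3 differed by 1.04 ± 0.31 and 1.03 ± 0.12. Trp63, the master factor of stratified epithelium, overlapped, with signals of 78.2 to 211 in the 3 and 71.2 to 129 in the other 5.

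Wnt target and feedback genes were counted as higher in 7 of 24 cases, with a median of 0.74 and none lower. Axin2, a direct target and inhibitor of the pathway, had signals of 406, 153 and 170 in the 3 and 20.6, 34.8, 40.5, 35 and 35 in the other 5, a difference of 2.28 ± 0.34. For this gene vehicle tumour 3 was the highest. Apcdd1, a Wnt inhibitor of the follicle, had signals of 335, 381 and 462 against 41.8 to 92.1 (2.52 ± 0.23). Nkd2 differed by 2.0 ± 0.49, and the ligand Wnt10a by 1.67 ± 0.19. Wif1, an inhibitor of Wnt ligands, overlapped: it read 33.5, 268 and 276 in the 3 and 162 in vehicle tumour 2.

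Among 21 genes of BMP, Shh and Eda signalling, 2 were counted as higher. Shh, the hedgehog ligand of the hair matrix, had signals of 162, 376 and 582 in the 3 and 24.6, 28.9, 45.5, 13.4 and 8 in the other 5 (3.19 ± 0.49); its other probe differed by 0.16. Bmp2, a ligand of the differentiating matrix, differed by 1.46 ± 0.39. Ptch1, a receptor and target of Shh, lay above the other 5 in all 3 tumours but differed by 0.81 ± 0.21. Id1 and Id3, genes that BMP signals induce, were counted as higher and were singled out after their values were seen; they differed by 2.07 ± 0.35 and 1.75 ± 0.36. Id2, of the same family, differed by -0.42 ± 0.17. Sostdc1, a BMP and Wnt antagonist of skin appendages, differed by 1.88 ± 0.48.

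Notch and EGFR lists are too short to compare with the shares of all genes, 1.78% counted as higher and 0.126% as lower. Of 16 Notch genes, Jag1, a ligand, was counted as higher (1.02 ± 0.38), and the target Hey1 was counted as lower. Of 12 EGFR ligands and receptors, Tgfa was counted, with signals of 175, 202 and 291 against 27.5 to 95.6 (1.67 ± 0.39). Egr3, an immediate early factor, was the 1 member of 17 AP-1 and immediate early genes counted as higher (1.53 ± 0.30). Kinases and substrates of Src and Abl, the targets of SKI-606, had 0 of 15 counted, with a median of 0.11; Src itself differed by 0.29 ± 0.18.

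Genes lower in the 3 tumours were fewer and had smaller differences. Aqp5, a water channel of secretory epithelium, had signals of 1676, 970 and 720 in the 3 and 3188, 4236, 4592, 3437 and 5465 in the other 5, a difference of -1.94 ± 0.32. Hey1, the Notch target, had 414, 299 and 179 against 973, 1035, 1024, 959 and 1292 (-1.84 ± 0.26). Tox2, an HMG-box factor, had 160, 52 and 37.1 against 653, 442, 562, 273 and 344 (-2.39 ± 0.48), although its dimmer second probe differed by 0.29. For all 3 genes the order within the class was the same, with vehicle tumour 3 nearest to the other 5. Dcpp1, a secreted salivary protein gene, had the largest difference (-2.45 ± 0.80), with 11.4, 18.6 and 1.25 against 32.4 to 376. Cldn2, a pore-forming claudin, differed by -1.48 ± 0.37, Rbp7, a retinol-binding protein, by -1.46 ± 0.22, and Etv5, an ETS factor, by -1.21 ± 0.29. The remaining genes named as lower lay between -0.91 and -1.27. Of these, Folr1, B4galt6, Elapor1, Tk1 and Sntb1 differed by less than 1 and so were not counted as lower by the rule.

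**Figure D3:**
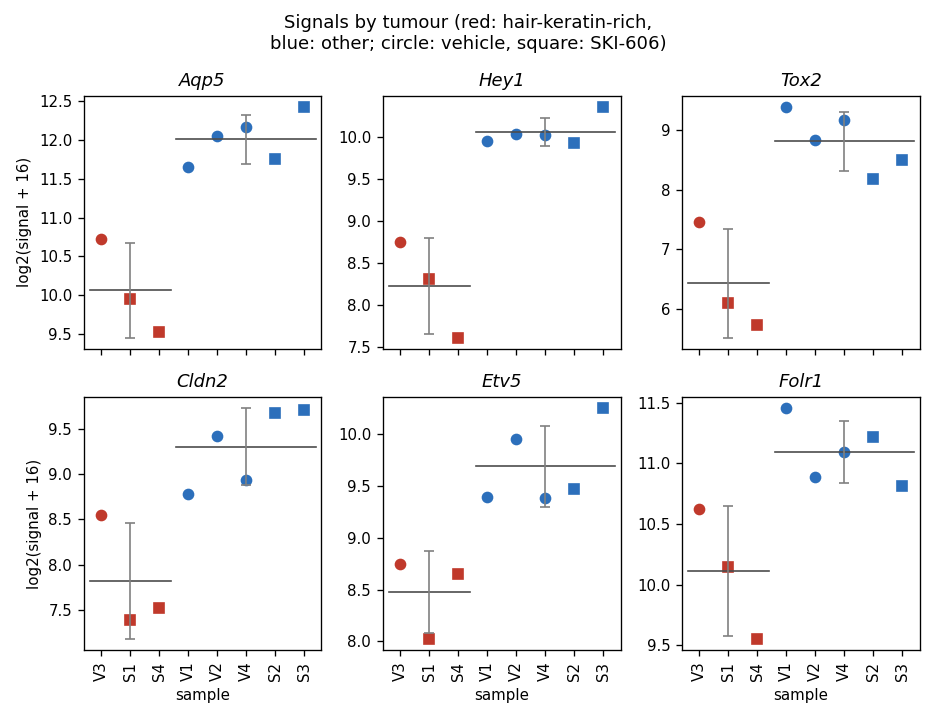
Signals of 6 genes lower in the hair-keratin-rich tumours, as log2(signal + 16), with colours, symbols, lines and bars as in the plot of higher genes. The red points lie below all blue points in each panel, and for Aqp5, Hey1, Tox2 and Folr1 SKI-606 tumour 4 is the lowest. Folr1, with a difference of -0.98, was not counted as lower by the rule.

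Serous gland genes, expressed in salivary and lacrimal glands, all had negative differences (13 of 13, median -0.90), yet only Dcpp1 and Aqp5 were counted as lower. Car6, a secreted carbonic anhydrase, had signals of 37.4 and 35.6 in SKI-606 tumours 1 and 4 but 1074 in vehicle tumour 3, within the range of the other 5 (256 to 3616). Bhlha15, a factor of secretory cells, read 1054 in vehicle tumour 3, 140 and 54.1 in the SKI-606 pair and 347 to 1446 in the other 5. Car6 and Bhlha15 thus divided the 3 tumours and were not commonly low in them. For both genes the lowest of the other 5 was SKI-606 tumour 2, whereas SKI-606 tumour 3, at 1150 and 1118, lay among the vehicle tumours. For these genes, treatment and the difference within the class cannot be told apart. The list means were 6.06 in vehicle tumour 3, 5.45 and 5.07 in the SKI-606 pair and 6.13 to 7.31 in the other 5, and so did not overlap. Of the 13 genes, 4 lay below the other 5 in all 3 tumours.

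Markers of other cells of the gland or skin were read in the same way. Of 15 basal and myoepithelial genes 5 were counted as higher, with a median of 0.73. Krt14, Krt5 and Krt17, which also stand on the epidermal list, differed by 2.37 ± 0.57, 2.09 ± 0.47 and 3.01 ± 0.53. Acta2 and Actg2, smooth muscle actins on the basal and myoepithelial list, differed by 1.64 ± 0.38 and 2.36 ± 0.56. The part of myoepithelial cells in these differences was not tested. Acta2 had signals of 1449, 4051 and 3210 against 622 to 1127. Of 20 luminal genes, Cldn4 was counted as higher (1.26 ± 0.41), and the median was -0.04, equal to that of all genes. Milk and alveolar genes had 0 of 23 counted and a median of -0.08; Folr1, a folate receptor of the secretory epithelium, was below the other 5 in all 3 tumours, by -0.98 ± 0.27.

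Lists of other cell types of hair-bearing skin had few or no members counted. Melanocyte genes had 0 of 12 counted and a median of -0.07. Of the pigment genes, Dct read 9.12 to 18.2 in the 3 tumours and 3 to 15.5 in the other 5, and Mlana 0.875 to 8 and 5 to 20.4. Sebaceous gland genes had 2 of 11 counted, the keratin Krt79 (2.13 ± 0.59) and the lipid carrier Fabp5 (1.01 ± 0.20), and a median of 0.16. The sebaceous list means were 6.93, 6.89 and 6.78 in the 3 and 6.4 to 6.67 in the other 5, and so did not overlap; the part of sebaceous cells in this was not tested. Dermal papilla genes had 0 of 16 counted, with a median of 0.15 and list means of 4.91 to 5.51 in the 3 and 4.91 to 5.38 in the other 5. Adipocyte and skeletal muscle genes, which would come with tissue beside the gland, had 0 of 14 and 0 of 18 counted. The muscle list means were 6.67, 8.17 and 4.89 in the 3 and 4.9 to 9.85 in the other 5, so muscle transcripts overlapped fully between the classes.

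Among blood and immune cells, neutrophil genes gave 3 of 14 counted as higher, with list means of 5.78 to 7 in the 3 and 5.18 to 5.33 in the other 5. The 3 genes were S100a9 (4.76 ± 0.78), Mmp9 (2.95 ± 0.44) and S100a8 (2.48 ± 0.52), of which S100a8 and S100a9 are also made by activated keratinocytes. Csf3r, the neutrophil growth factor receptor, read 6.25 in vehicle tumour 3, 140 and 188 in SKI-606 tumours 1 and 4, and 4.5 to 41.1 in the other 5. The part of neutrophils in these 3 differences was not tested. T and NK cell, macrophage, B cell and red blood cell lists had 0 members counted. Interferon response genes had 0 of 19 counted and a median of -0.36.

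Each treatment gave its own comparison of the classes: vehicle tumour 3 against vehicle tumours 1, 2 and 4, and SKI-606 tumours 1 and 4 against SKI-606 tumours 2 and 3. By the same rule of size and overlap 403 genes were higher in the vehicle comparison (2.22% of all genes) and 803 in the SKI-606 comparison (4.41%), and 211 in both, which is 52.4% of the first and 26.3% of the second. None of the 403 was lower by the rule in the SKI-606 comparison. Of lower genes there were 294 (1.62%) and 311 (1.71%), of which 9 were shared (3.06% and 2.89%), and 23 lower in the vehicle comparison were higher in the other. The medians of the inner root sheath list, with the selecting genes included, were 3.20 in vehicle and 5.37 in SKI-606. Those of the hair shaft keratins were 1.48 and 4.05, and those of the cornified envelope list 1.95 and 2.49. The selection on hair genes high in both treatments sets part of the sharing among higher genes. The vehicle comparison rests on 1 tumour of the class.

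**Figure D4:**
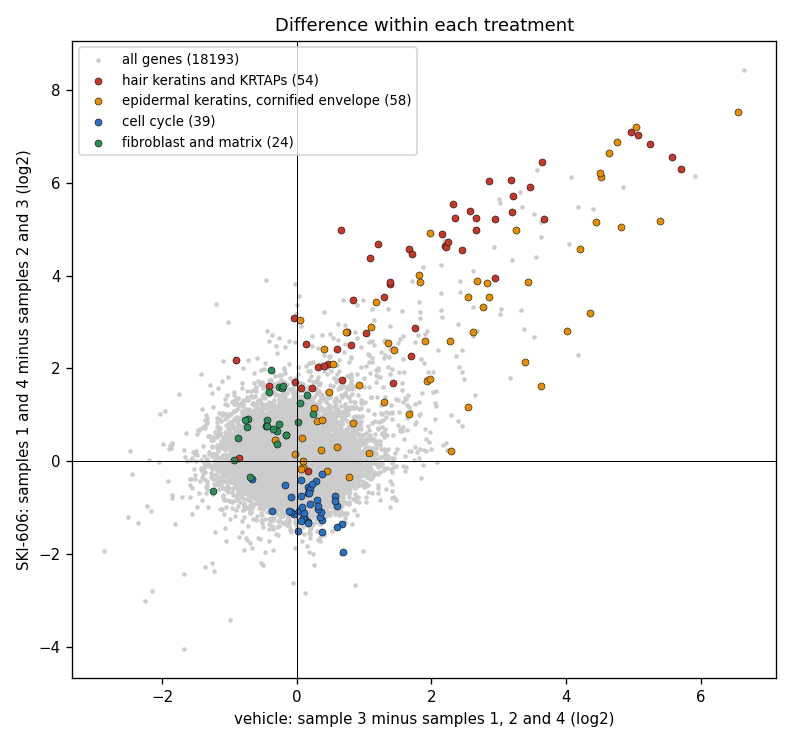
Difference between the hair-keratin-rich and other tumours within vehicle (horizontal axis, log2) and within SKI-606 (vertical axis, log2) for each of 18193 genes, with 4 groups of lists in colour. Hair and epidermal genes extend to the upper right. The inner root sheath list, with the selecting genes included, has medians of 3.20 in vehicle and 5.37 in SKI-606. Cell cycle genes lie below 0 in SKI-606 and around 0.17 in vehicle, and fibroblast genes lie above 0 mainly in SKI-606.

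Within the class, vehicle tumour 3 carried lower levels of most shared genes. Of the 323 genes counted as higher it was the lowest of the 3 for 243, the highest for 49 and between for 31, and its median difference from the mean of the SKI-606 pair was -0.79. The gap varied with the kind of gene. It was below both SKI-606 tumours for 32 of 33 keratin-associated proteins (median -2.21), 12 of 12 hair shaft keratins (-1.98) and 9 of 9 inner root sheath genes (-1.73). For 14 of 20 epidermal keratins it was below both (-0.84), and for cornified envelope genes it was below both for 20 of 38 and above both for 12 (-0.27). Krtap21-1 read 20.6 in vehicle tumour 3 and 435 and 1027 in SKI-606 tumours 1 and 4, and Krtap7-1 read 72.2, 804 and 811. Krt15, a keratin of basal cells and the follicle bulge, ran the other way, with 384 in vehicle tumour 3 and 31.4 and 21.4 in the pair.

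**Figure D5:**
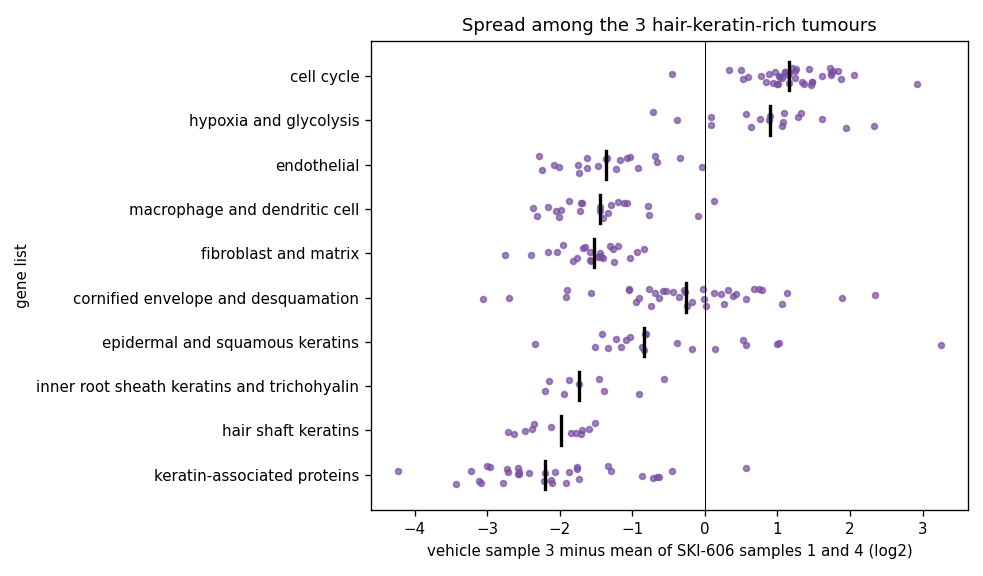
Difference of vehicle tumour 3 from the mean of SKI-606 tumours 1 and 4 (log2, horizontal axis) for each measured gene of 10 lists; black bars are list medians. Hair lists lie to the left of 0 (medians -2.21 to -1.73), the cornified envelope list straddles 0 (-0.27), and the cell cycle list lies to the right (1.16).

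Outside the epithelial genes the 3 tumours were not alike. Vehicle tumour 3 was below both SKI-606 tumours for 24 of 24 fibroblast and matrix genes (median -1.52), 19 of 20 endothelial genes (-1.36) and 20 of 22 macrophage genes (-1.44), and above both for 38 of 39 cell cycle genes (1.16). The mean of the fibroblast list was 9.06 in vehicle tumour 3, 10.5 and 10.79 in SKI-606 tumours 1 and 4, and 9.29 to 10.03 in the other 5. That of the cell cycle list was 8.09, 6.89 and 6.85, with 7.69 to 8.04 in the other 5. Mki67, a marker of cycling cells, had signals of 398 in vehicle tumour 3, 79.4 and 88.1 in the pair and 160 to 360 in the other 5. Against the other 5, the class medians of 0.55 for fibroblast and -0.62 for cell cycle genes hid opposite directions within treatments (-0.37 in vehicle and 0.82 in SKI-606; 0.17 and -1.02). Vehicle tumour 3 also had the highest hypoxia and glycolysis mean, 9.41 against 8.29 to 8.57 in the other 7, with Vegfa, the angiogenic growth factor, at 449 against 71.2 to 180. The part of stromal, immune and cycling cells in the differences of the hair and epidermal genes was not tested.

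Some genes were high in the SKI-606 pair and low in vehicle tumour 3. Granzymes D, F and G, serine proteases of cytotoxic cells, were among them. Gzmd read 1650 and 468 in SKI-606 tumours 1 and 4, 11.4 in vehicle tumour 3 and 7 to 85 in the other 5. Gzmf read 1032 and 256, and 3 in vehicle tumour 3. These genes are close paralogues and their probes may read each other. Of the same cluster, Gzmb read 66.5 and 64.6 in the pair, 8.25 in vehicle tumour 3 and 20.6 to 57.8 in the other 5, and Gzmn was no higher than 14.5 in any sample. Gzmc read 206 and 186 in the pair, 14.1 in vehicle tumour 3 and 15.5 to 54.6 in the other 5. Gzme differed from these, since all 3 tumours lay above the other 5 and it was counted as higher (2.68 ± 0.81). Its signals were 608 and 241 in the pair, 50.2 in vehicle tumour 3 and 4.38 to 44.2 in the other 5. Haptoglobin (Hp), an acute-phase protein, read 6736 and 6878 in the pair and 479 in vehicle tumour 3, with 331 to 1162 in the other 5. Sod3, the extracellular superoxide dismutase, read 1513 and 1228 against 114, and Col2a1, the cartilage collagen, 681 and 258 against 3. Since both tumours with these values had received SKI-606 and the third had not, treatment and the difference within the class cannot be told apart here.

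Treatment, which the labels give and the selection did not use, was spread over both classes. Of 4 vehicle tumours 1 was hair-keratin-rich, and of 4 SKI-606 tumours 2 were, with a two-sided Fisher's exact p = 1; the smallest p that 3 of 8 tumours allow is 0.143, so no difference could pass 0.05. Over all probes the limma test of SKI-606 against vehicle called 0 of 45037 (0%) at a Benjamini-Hochberg adjusted p below 0.05. The unadjusted p was below 0.05 for 3771 probes, and the lowest adjusted p was 0.519. With 4 tumours in each treatment, 0 calls do not show that treatment had no effect. For Krt27 the SKI-606 mean was 2.02 ± 1.91 (SE, n = 4 and 4) above the vehicle mean on the log2 scale, with an adjusted limma p of 0.804. For Prr9 it was 2.26 ± 2.35, with an adjusted limma p of 0.826. Neither gene passed the threshold. Krt27 chose the samples and Prr9 was named for its class difference, with 1 of 4 vehicle and 2 of 4 SKI-606 tumours high. Their values here restate that split, and nothing about treatment is drawn from them. With the class as a term in the limma fit, 0 probes were called as well, and 3721 had an unadjusted p below 0.05.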

How the data were processed

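Mouse expression arrays (Affymetrix, labelled as that maker recommends, per the labels' protocols) gave 1 profile for each of 4 vehicle and 4 SKI-606 samples. What was deposited is a linear ratio per probe and array; the software behind it is not given in the sources used here. Each ratio takes the form of a signal over its array's median and over the probe's own median across arrays (at least 10), floored at 0.01. Whole-number signals that give back all 45101 probes within a relative 0.0001 were recovered, and on simulated data 99.76% of 5000 probes came back exactly. After 64 control probes were left out, signals were quantile-normalized and log2(signal + 16) was taken. The number of arrays limits the precision.

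Of 45037 probes, 34945 had 1 gene symbol in the platform annotation, 932 several and 9160 none listed here; 34741 matched RefSeq, with 0 symbols changed. A gene was read from its brightest single-symbol probe (18193 genes). Named were Krt27, Krt73 and Tchh, the 20 genes of largest difference in each direction without overlap and with a mean signal of at least 100 in the higher class, up to 4 members of each of 35 lists, and the 8 genes in each direction that most set vehicle tumour 3 apart in its class; other genes were chosen after their values were seen. Members and lists were chosen with earlier results of these data known. The labels describe RNA from each mouse, so the samples are taken as separate animals.

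Treatment was tested with limma 3.58.1 in R 4.3.3 (lmFit and eBayes, Benjamini-Hochberg over all probes), and its association with the class by Fisher's exact test. The fit and the counting rule were tested on simulated data. Alternatives were another scale, added constant, normalization, probe rule, filter and size, treatment or replicate number as a term, and each sample left out.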

Additional observations from a re-analysis of the deposited data

Results flagged for a closer look

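Dixon's test at the 95% level was applied to the mean log2 value of each of 35 lists within the vehicle samples, within the SKI-606 samples and within the other 5, which is 105 groups; chance marks about 1 in 20. Vehicle tumour 3 stood apart from the 3 other vehicle tumours for inner root sheath genes (8.38), hair shaft keratins (6.33), keratin-associated proteins (5.88), follicle secreted and membrane proteins (7.54), epidermal keratins (7.73) and cornified envelope genes (7.37). The selection used Krt27, Krt73 and Tchh, all on the first of these lists, and it put vehicle tumour 3 in its class, so these values are descriptions. SKI-606 tumour 1 had a melanocyte list mean of 5.60, vehicle tumour 2 a dermal papilla mean of 5.38 among vehicle tumours, and vehicle tumour 2 an endothelial mean of 6.38 among the other 5.

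Of the 40 named genes of largest difference, the selecting genes among them, vehicle tumour 3 stood apart among vehicle tumours for 18, 17 of them higher in the class and the other being Hey1; these genes were picked because the classes do not overlap, so this count was fixed in part by the selection and supports nothing. Vehicle tumour 4 did so for 1, Tk1. Among the other 5, vehicle tumour 4 stood apart for 3 (Krt6a, Sprr1a and Crct1, its signals being the highest of the 5), vehicle tumour 2 for 2 (Sprr1b and Krtap4-6), vehicle tumour 1 for 1 (Fam174b) and SKI-606 tumour 3 for 1 (Hey1).

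For several lists the class difference took opposite directions in the 2 treatments, in every sample of the class; the difference between treatments was not tested, and in vehicle it rests on 1 tumour. The difference of list means in vehicle minus that in SKI-606 was -1.26 for fibroblast and matrix, -1.18 for endothelial, -1.21 for macrophage and dendritic cell, -0.35 for T and NK cell and -0.26 for Notch genes. It was 1.15 for cell cycle and 0.56 for fatty acid and cholesterol synthesis genes.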

How the results depend on the processing

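The count of genes higher in the 3 tumours was 323. It was 198 with 64 added in place of 16 and 141 at 4-fold, and lay between 308 (without SKI-606 tumour 4) and 821 (without vehicle tumour 3) when each sample was left out. The count of lower genes, 23, was 204 on the log2 deposited ratios, 8 with 64 added, 97 with 4 added, 68 with the replicate number as a block, 167 at 1.5-fold, 2 at 4-fold and 15 with a mean signal of at least 100, and lay between 27 (without SKI-606 tumour 1) and 242 (without vehicle tumour 3) with each sample left out; it was 39 without vehicle tumour 1, 39 without SKI-606 tumour 2 and 46 without SKI-606 tumour 4. With the replicate block 379 genes were higher, of which 305 were among the 323. Same-numbered samples of the 2 treatments had correlated deviations of 0.021, 0.108, -0.151 and -0.106, so the numbers were not taken as pairs. The limma test of treatment called 0 probes in all 15 settings run, with 2366 to 4923 probes at an unadjusted p below 0.05 and a lowest adjusted p of 0.0743 on the log2 ratios; with the replicate block it called 0, with 3856 at an unadjusted p below 0.05. List medians kept their direction in the settings named next. On the log2 ratios they were 6.67 for inner root sheath, 4.74 for hair shaft, 4.85 for keratin-associated, 2.42 for epidermal keratin and 3.67 for cornified envelope genes; with 64 added they were 3.09, 1.94, 1.80, 1.5 and 1.34 in that order. With 4 added they were 5.72, 3.96 and 2.95 for inner root sheath, keratin-associated and cornified genes, and with the mean of all probes 1.77 for epidermal keratins. With each sample left out they ranged from 3.99 to 5.23, 2.63 to 3.70, 2.41 to 3.69, 1.76 to 2.25 and 2.06 to 2.36, in the same order of lists. A larger added constant lowers the differences of dim genes by its construction; the cause of the other changes was not tested. The number of arrays and signals near background limit the dim genes.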

Other observations

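Of the 323 genes counted as higher, 194 stood on none of the lists. The following were chosen after their values were seen, and their values are descriptions. Sp6, a zinc finger factor of skin appendages and teeth, had signals of 220 in vehicle tumour 3, 214 and 296 in SKI-606 tumours 1 and 4, and 11.4 to 35.2 in the other 5, a difference of 2.76 ± 0.23. Aqp3, the glycerol channel of epidermis, differed by 2.41 ± 0.31 and Sfn, the 14-3-3 protein of stratified epithelium, by 1.87 ± 0.31. Mmp12, a macrophage elastase, differed by 3.27 ± 0.82, and Igfbp3, an IGF-binding protein, by 2.20 ± 0.44. Gja1, the gap junction protein connexin 43, read 2642 in vehicle tumour 3, 1324 and 2050 in SKI-606 tumours 1 and 4, and 436 to 1069 in the other 5 (1.55 ± 0.38). Other probes of Sp6, Gja1 and Aqp3 differed by as little as -0.12, -0.32 and 0.26. Saa3, an acute-phase protein, differed by 2.80 ± 0.43, and Stfa3, a cystatin of myeloid cells, by 2.84 ± 0.55, with its signal of 384 in vehicle tumour 3 against 57.1 and 91.4 in SKI-606 tumours 1 and 4.

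Vehicle tumour 4, one of the other 5, had 10 of the 323 genes (3.1%) at least 1 log2 unit above the next of the other 5, against 1 in SKI-606 tumour 3 and 0 in the remaining 3. Over all 18193 genes the count was 46 (0.253%) in vehicle tumour 4, 72 (0.396%) in SKI-606 tumour 2 and 14 in each of the others. They include Cst6 at 1912, Sprr1a at 254, Crct1 at 126 and both Krt6a and Krtdap at 66.1. None of these is a hair keratin, and Krt27 read 4.5, Krt73 3.62 and Tchh 14.5 in the same tumour.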
